A study of Drosophila melanogaster with 3 samples.

Results

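The genes for the subunits of the proteasome were examined for binding of the tagged transcription factor net in whole *Drosophila melanogaster* prepupae. The members are all genes whose Ensembl release 115 symbol starts with Rpn or Rpt and a digit, or with Prosalpha or Prosbeta. There are 48 of them among 17947 annotated genes, of which 13968 code for protein. By symbol, 14 members encode the core particle, 10 the base and 8 the lid, and 16 are paralogues that carry a T or an R after the subunit's number. They are spread over the arms 2L (8 genes), 2R (13 genes), 3L (7 genes), 3R (14 genes) and X (6 genes).

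Chromatin immunoprecipitation with sequencing (ChIP-seq) had been done with an anti-GFP antibody on sonicated chromatin of a transgenic line that makes net with green fluorescent protein at its C-terminal end. The 3 libraries are biological replicates 1, 3 and 4 of 1 group, each from prepupae of both sexes pooled, with the age recorded as unknown. Every library carries the transgene, and neither a library without it nor the control alignment was analysed here, so conditions are not compared, and signal that any anti-GFP precipitation would give cannot be told apart from binding of net. The sequence that drives the transgene is not given in the sources used here. In whole animals, strong binding in few cells and weak binding in many cannot be told apart either.

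The proteasome degrades proteins that carry ubiquitin chains. Its core particle is a barrel of stacked rings of alpha and beta subunits, some of the beta subunits being the proteases. The regulatory particle on its ends consists of a base, whose Rpt ATPases form a ring that unfolds substrates and opens the barrel, and a lid, in which Rpn11 removes the ubiquitin chains. In *Drosophila*, many of the core and Rpt genes have a paralogue that is known for expression in the testis. The protein net belongs to the basic helix-loop-helix (bHLH) transcription factors and is known as a repressor of vein formation in the wing.

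Binding is described by peak lists. The main list holds the 7571 peaks that passed the irreproducible discovery rate (IDR) threshold of the authors' procedure on the pooled libraries. Each peak has a summit, its point of highest enrichment, and a signal, the authors' own value, which ranged from 134 to 3742 with a median of 225 over the IDR list. Ranks count from 1 for the strongest peak of a list. A gene had a promoter summit when a summit lay within 500 bp of one of its own transcription start sites (TSSs). Each library and the pooled alignments also have a relaxed list of 30000 peaks, which by design reaches into background, and the 7571 strongest peaks of a library are called its top list here. The lists hold no read counts, so the depth of each library is unknown.

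Few proteasome genes had an IDR promoter summit, and those that did encode lid subunits. An IDR promoter summit was found at 3 of 48 members (6.25%), against 18.2% of all protein-coding genes (2538 of 13968). The 3 members were *Rpn3*, *Rpn5* and *Rpn11*, which made 3 of 8 lid genes (37.5%). None of the 14 core genes, 10 base genes or 16 paralogues had one. Among the 32 constitutive subunits, that is without the paralogues, the share was 9.38%, against 12.7% of protein-coding genes no longer than the longest member. The genes of one complex are no replicates of each other and the classes are small, so these counts are a description and no test was made of the difference between classes.

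The share of members was below that of all protein-coding genes in each library on its own. The top list of replicate 1 placed a promoter summit at 3 members (6.25%, against 19.9% of protein-coding genes), that of replicate 3 at 3 members (6.25%, against 20.7%) and that of replicate 4 at 4 members (8.33%, against 17.2%). *Rpn3* and *Rpn5* were among them in all 3 libraries. *Rpn11* was in the top lists of replicates 3 and 4, *Rpn13* in that of replicate 1 and *Prosalpha4* in that of replicate 4. The constitutive subunits alone stood at 9.38%, 9.38% and 12.5% in replicates 1, 3 and 4. Protein-coding genes no longer than the longest member stood at 14.1%, 15.1% and 12.6%, so in replicate 4 these shares were about equal.

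Proteasome genes are short, and gene length bears on these shares. The members span 881 to 4500 bp with a median of 1382 bp, against a median of 2164 bp over all protein-coding genes. Among the 10150 protein-coding genes no longer than the longest member, 12.7% had an IDR promoter summit, so the members' 6.25% stood nearer to this background than to that of all genes, and the 9.38% of the constitutive subunits nearer still. Of the other large complexes counted, the cytoplasmic ribosome stood far above the proteasome. The mitochondrial ribosome and the vacuolar ATPase were near the 18.2% of all protein-coding genes. Promoter summits lay at 62 of 93 genes of the cytoplasmic ribosome (66.7%), at 16 of 73 genes of the mitochondrial ribosome (21.9%) and at 5 of 33 genes of the vacuolar ATPase (15.2%).

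**Figure D1:**
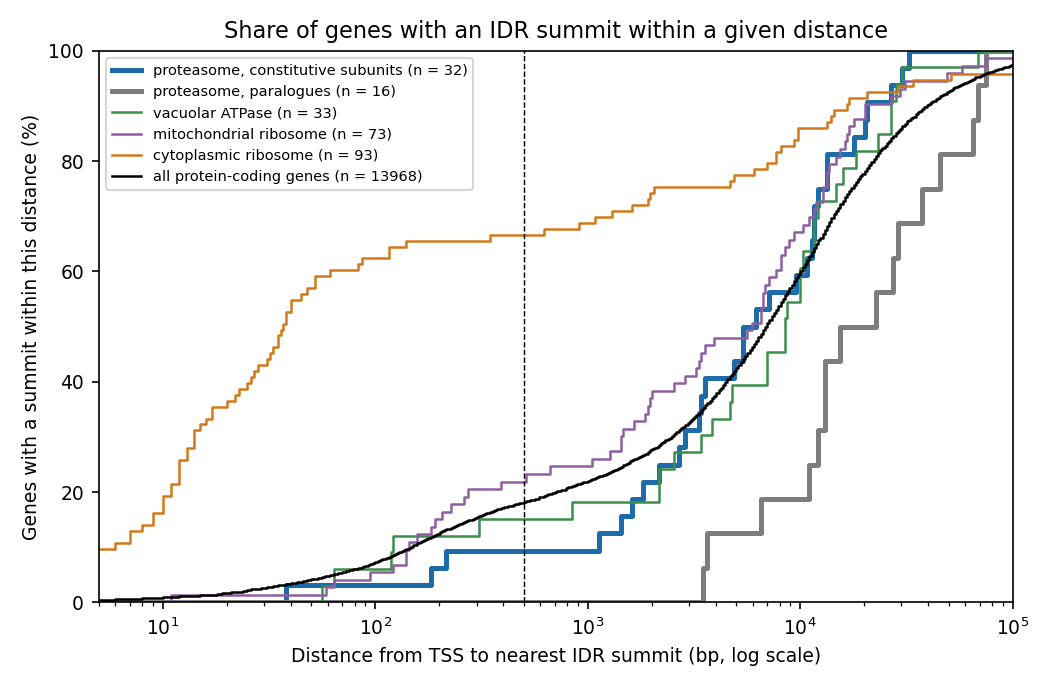
Share of genes (vertical axis, percent) with an IDR summit within a given distance of a TSS (horizontal axis, bp, log scale), for the constitutive proteasome subunits, their paralogues, 3 other complexes and all protein-coding genes. The dashed line marks 500 bp, where the constitutive subunits stand at 9.38%, the paralogues at 0% and all protein-coding genes at 18.2%.

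The nearest IDR summit was often several kilobases away. Its median distance from the TSS was 11029 bp over the 48 members, against 6822 bp over protein-coding genes. Among protein-coding genes no longer than the longest member it was 7897 bp. Over the 32 constitutive subunits it was 5732 bp, so the larger median of the 48 members came with the paralogues. The classes differed widely in this value, with medians of 3760 bp for the lid, 6189 bp for the core, 7368 bp for the base and 18793 bp for the paralogues. Within 10 kb, 22 of 48 members had a summit (45.8%), against 60.1% of protein-coding genes. Without the paralogues the count was 19 of 32 (59.4%), close to the level of all genes. Nearer to the TSS the constitutive genes were below all genes, at 9.38% within 1 kb, against 22.0%, and at 21.9% within 2 kb, against 27.8%. Among protein-coding genes no longer than the longest member the shares were 15.5% and 21.1%. The constitutive genes were thus below this background within 1 kb and close to it within 2 kb. Only 3 of 16 paralogues had a summit within 10 kb (18.8%), and none within 2 kb of the TSS.

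**Figure D2:**
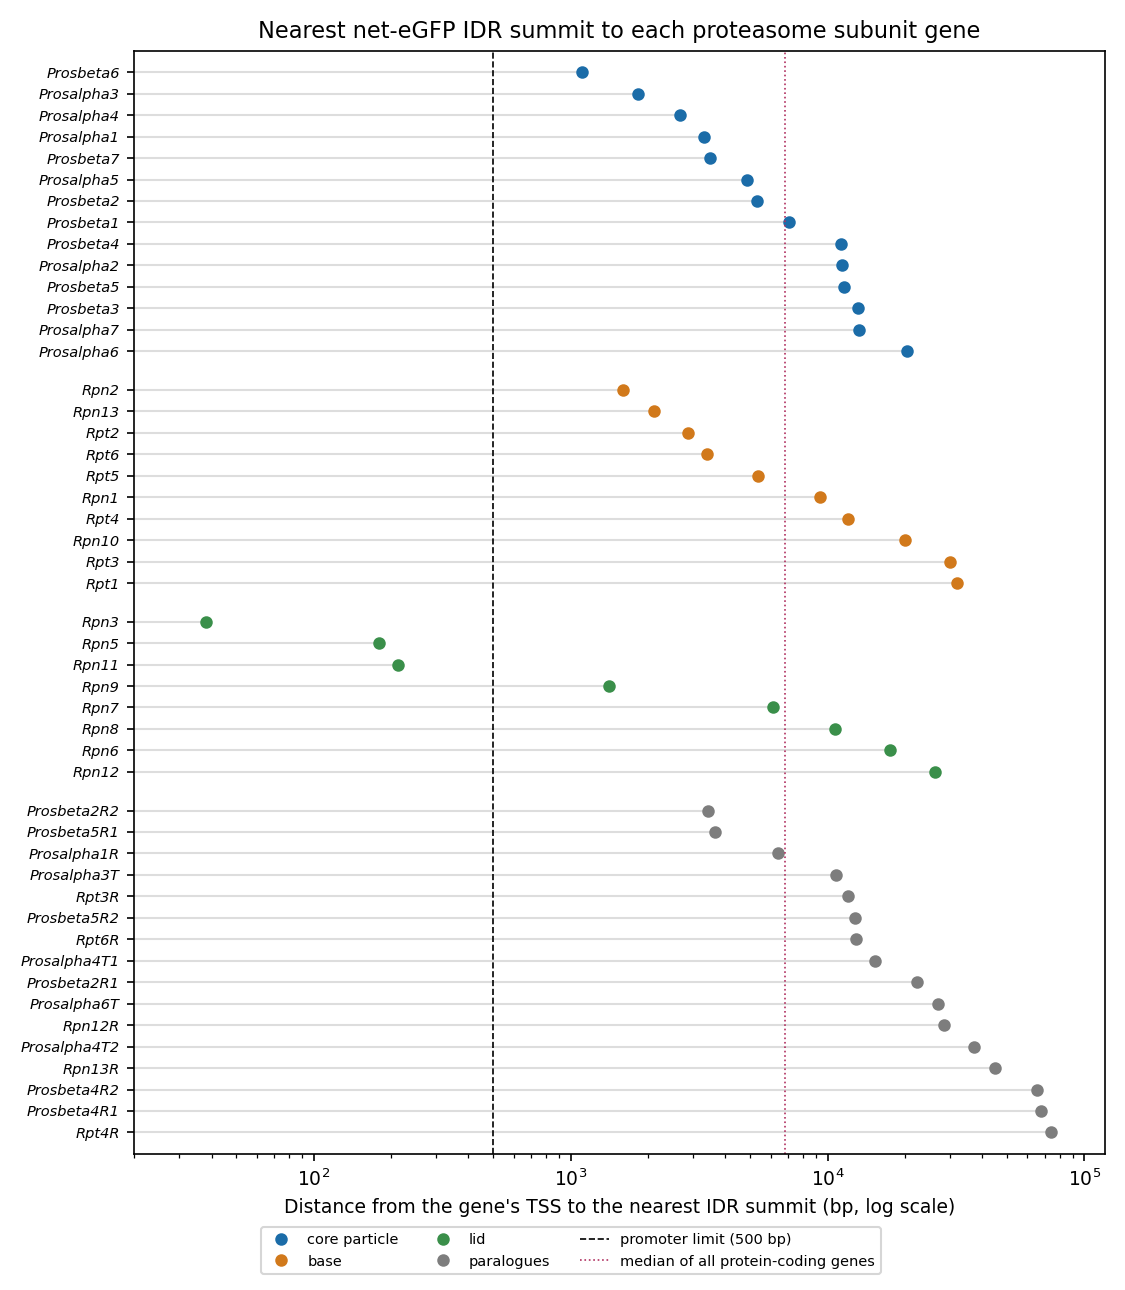
Distance from the TSS to the nearest IDR summit (horizontal axis, bp, log scale) for each of the 48 proteasome genes, 1 point per gene, grouped by class. *Rpn3*, *Rpn5* and *Rpn11* are the points left of the dashed 500 bp line, and the next gene is *Prosbeta6* at 1106 bp. The dotted line is the median of protein-coding genes, 6822 bp.

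*Rpn3*, which encodes a structural subunit of the lid, had the strongest promoter peak of the members. The gene lies on 2L from 19051790 to 19053681 on the plus strand (build dm6), and the peak covers 460 bp from 19051598 to 19052057. Its summit lay 38 bp downstream of the TSS, in the 5′ UTR, with a pooled signal of 354 and rank 1876. Signals were 99.6 in replicate 1, 139 in replicate 3 and 113 in replicate 4, at ranks 2207, 1760 and 2161 (mean rank 2043 ± 246, SD, n = 3). The 3 libraries thus placed this peak among the stronger ones of their top lists, with similar ranks. The summits of replicates 3 and 4 lay 54 and 41 bp downstream of the TSS and that of replicate 1 lay 39 bp upstream. A divergent gene, *l(2)37Bb*, starts 178 bp from the *Rpn3* TSS, so the peak lies within 500 bp of both.

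The stretch before the *Rpn3* TSS holds an exact tandem repeat, shown here because the peak covers it. The sequence is chr2L:19051583-19051789 on the plus strand, up to the last base before the TSS, and the capitals mark both copies of the repeat.
Rpn3 promoter: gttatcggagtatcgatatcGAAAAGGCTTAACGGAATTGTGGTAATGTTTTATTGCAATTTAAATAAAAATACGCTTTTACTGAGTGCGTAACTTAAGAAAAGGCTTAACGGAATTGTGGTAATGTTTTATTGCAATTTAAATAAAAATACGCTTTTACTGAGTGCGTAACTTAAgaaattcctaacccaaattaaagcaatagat
The copies are 78 bp long each and adjoin with a gap of 0 bp, from −187 to −110 and from −109 to −32 relative to the TSS. The longest exact repeat in the same window of any other member was 16 bp, and 11 of the protein-coding promoters (0.0788%) hold one at least as long as that of *Rpn3*. The replicate 1 summit fell in the copy nearer to the TSS. The part of the repeat in the peak's height was not tested. Around the pooled summit, chr2L:19051814-19051843 on the plus strand, the sequence holds CATATG, a form of the CANNTG E-box that bHLH proteins recognise, in capitals.
Rpn3 summit: taaattcctataaCATATGagactgaaagt

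*Rpn5*, the gene of another structural subunit of the lid, lies on 3R from 5789493 to 5791569 on the plus strand. Its promoter peak, from 5789083 to 5789542, had its summit 180 bp upstream of the TSS, with a pooled signal of 297 and rank 2501. Signals were 103, 92.0 and 112 in replicates 1, 3 and 4, at ranks 2080, 3421 and 2217 (mean rank 2573 ± 738, SD, n = 3). All 3 values lie in the upper part of the libraries' top lists, with replicate 3 the lowest of them. The summit falls in an intron of the divergent gene *Hat1*, a histone acetyltransferase gene whose TSS is 71 bp from it and thus nearer than that of *Rpn5*. The libraries' own summits for this peak all lay within *Hat1*, 273, 113 and 195 bp upstream of the *Rpn5* TSS in replicates 1, 3 and 4. Replicate 1 also had a weaker summit at rank 4142, 74 bp upstream, between the starts of *Hat1* and *Rpn5*. The 30 bases around the pooled summit, chr3R:5789299-5789328 on the plus strand, hold no E-box.
Rpn5 summit: aaacctctgacaaccctatgcgcaatttac

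*Rpn11* encodes the metalloprotease that cuts ubiquitin from substrates, and it lies on 2L from 5058404 to 5059790 on the minus strand. The peak, from 5059772 to 5060231, had its summit in intergenic sequence, 212 bp upstream of the TSS, with a pooled signal of 192 and rank 4763. Signals were 40.2 in replicate 1, 67.2 in replicate 3 and 85.2 in replicate 4, at ranks 8769, 5553 and 3392 (mean rank 5905 ± 2706, SD, n = 3). In replicate 1 the peak is outside the top list, so it fails when either replicate 3 or replicate 4 is left out and 2 members remain. The summits of the libraries lay close together, 213, 205 and 197 bp upstream of the TSS in replicates 1, 3 and 4. No other gene starts within 500 bp of the *Rpn11* summit, which sets it apart from *Rpn3* and *Rpn5*. The 101 bases centred on the summit, chr2L:5059952-5060052 on the minus strand, are printed to show that this stretch holds no CANNTG.
Rpn11 summit: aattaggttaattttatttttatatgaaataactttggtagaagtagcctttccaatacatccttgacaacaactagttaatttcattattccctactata

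**Figure D3:**
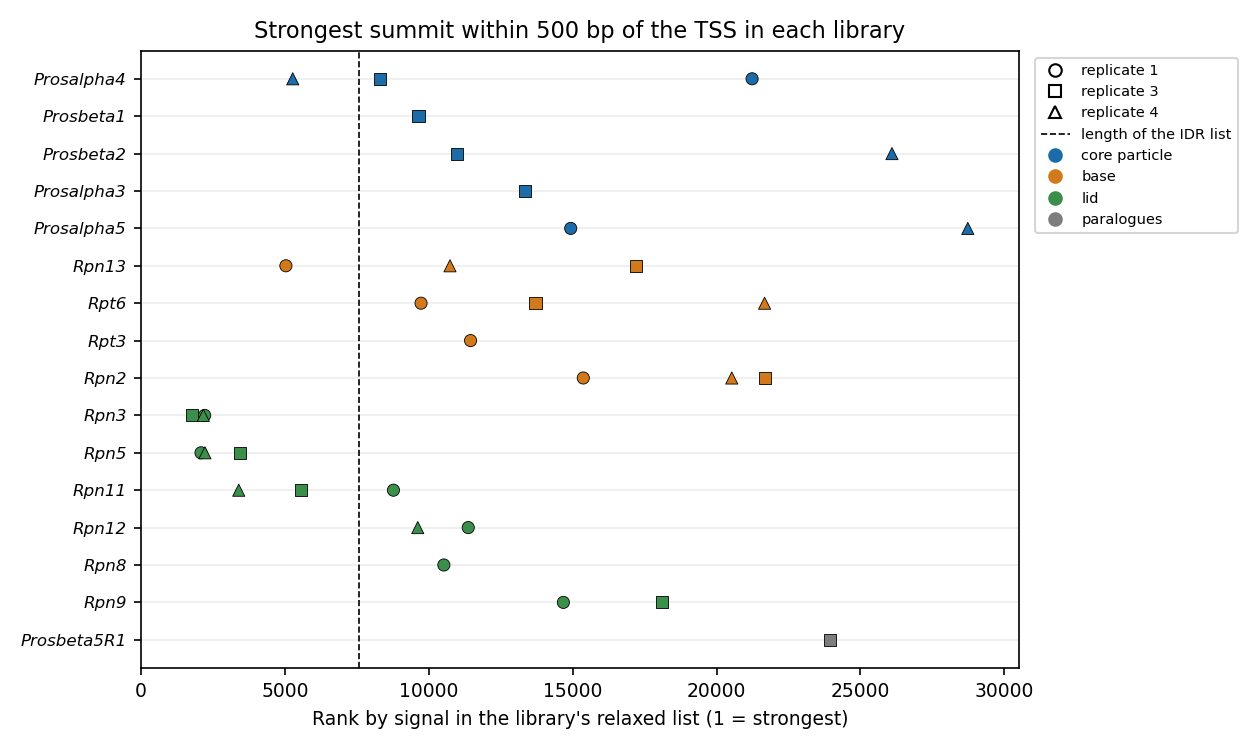
Rank of the strongest summit within 500 bp of a TSS in each library's relaxed list (horizontal axis, 1 is the strongest) for the 16 members with such a summit in any library, with 1 marker shape per replicate and 1 colour per class. *Rpn3* and *Rpn5* lie left of the dashed line, the length of the IDR list (7571), in all 3 libraries, and *Rpn11* in replicates 3 and 4.

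Below the IDR threshold, weaker promoter peaks were found at further constitutive genes. The relaxed pooled list placed a promoter summit at 10 of 48 members (20.8%), against 33.6% of protein-coding genes, and against 23.9% of those no longer than the longest member. By class these were 4 of 14 core genes, 2 of 10 base genes, 4 of 8 lid genes and 0 of 16 paralogues. Counting any of the 4 relaxed lists raised the number to 16 of 48 (33.3%), against 46.2% of protein-coding genes. Among genes no longer than the longest member, any of these lists gave 36.3%. The constitutive subunits alone stood at 31.2% in the relaxed pooled list and 46.9% in any relaxed list, near the shares of all protein-coding genes, and the lower values of the 48 members came with the paralogues. The other 32 members, 15 of them paralogues, had no promoter summit in any list.

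In the core particle, *Prosalpha4*, an alpha ring gene on X, came nearest to the threshold. Its stronger relaxed peak had a pooled signal of 131 at rank 7848, with the summit 311 bp upstream of the TSS in an intron of the divergent gene *kat80*. The library signals there were 18.2, 48.7 and 62.2 in replicates 1, 3 and 4, at ranks 21234, 8313 and 5269. Replicate 4 alone had it in its top list, replicate 3 had it just past the end of that list, and replicate 1 far below. A weaker peak 66 bp upstream had a signal of 61.4. *Prosbeta1*, which encodes a catalytic subunit, had a relaxed peak of signal 51.9 with the summit 17 bp downstream of the TSS, matched in replicate 3 only. *Prosbeta2*, another catalytic subunit gene, had one of signal 63.8, 393 bp upstream of its TSS in coding sequence of *mRpL39*, matched in replicates 3 and 4 only. *Prosalpha5* had one of signal 41.8 in its own coding sequence, 388 bp from the TSS, matched in replicates 1 and 4 only. At *Prosalpha3*, only replicate 3 had promoter summits, the stronger at rank 13333. The other 9 core genes had none in any list.

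In the base, *Rpn13*, a ubiquitin receptor gene, had relaxed pooled peaks of signal 104 and 76.6, with summits 72 and 292 bp upstream of the TSS. The first was matched in replicates 3 and 4 only. The second lies in the 5′ UTR of *CtsL1*, 21 bp from the TSS of that divergent gene, and was in the top list of replicate 1 at rank 5031. *Rpn2*, which encodes a scaffold of the base, had peaks of signal 54.9 and 48.1 that both lie nearer to *Slbp* than to *Rpn2*. The peak of signal 54.9 was matched in replicate 1 only and that of signal 48.1 in replicates 1 and 4 only. *Rpt6*, an ATPase gene, was a case apart. Each library had a promoter summit for it, at ranks 9728, 13704 and 21668 in replicates 1, 3 and 4, but the pooled list had none within 500 bp. Those of replicates 1 and 3 lay 15 bp downstream and 3 bp upstream of the TSS, and that of replicate 4 lay 278 bp upstream. *Rpt3*, another ATPase gene, had a promoter summit in replicate 1 alone, at rank 11449.

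In the lid, *Rpn9* had a relaxed pooled peak of signal 55.0 in its 5′ UTR, 161 bp from its TSS, matched in replicates 1 and 3 only. *Rpn12* had summits in replicate 1 (79 bp upstream, rank 11369) and replicate 4 (152 bp upstream, rank 9614), and *Rpn8* in replicate 1 alone (rank 10521 for the stronger). *Rpn6* and *Rpn7* had none in any list. Of the paralogues, *Prosbeta5R1* alone had a promoter summit, in replicate 3 at rank 23956 and 497 bp upstream.

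Under a wider rule, which also counts summits in the gene body or its 2 kb flanks, 12 of 48 members had one (25%), against 34.4% of protein-coding genes and 26.1% of those no longer than the longest member. By class the counts were 4 of 14 core genes, 3 of 10 base genes, 4 of 8 lid genes and 1 of 16 paralogues. The constitutive subunits taken alone gave 11 of 32 (34.4%), the same share as all protein-coding genes. Summits within the gene itself were found at *Rpn3* alone (2.08% of members), against 15.0% of protein-coding genes and 4.90% of those no longer than the longest member.

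**Figure D4:**
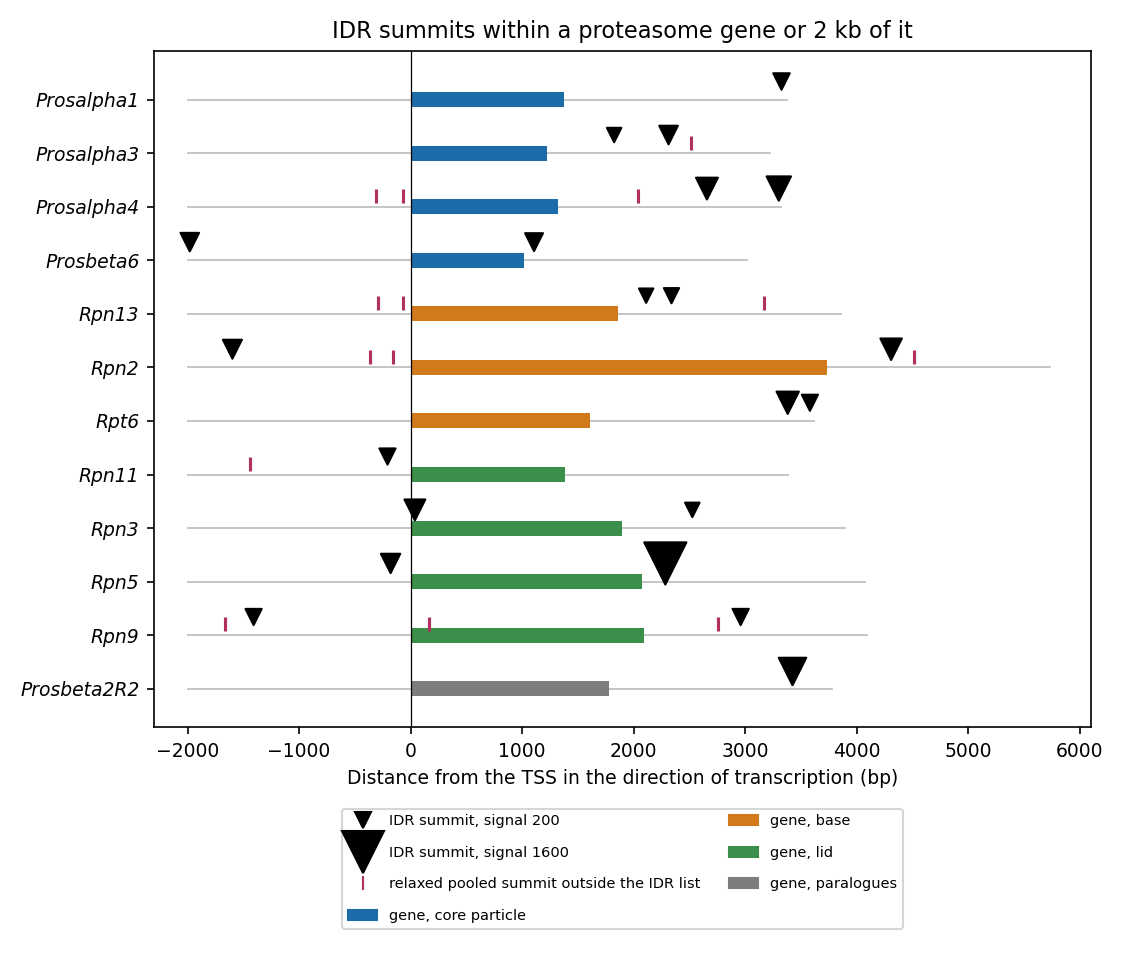
Positions of summits around the 12 members that have an IDR summit in the gene or its 2 kb flanks, as distance from the TSS in the direction of transcription (horizontal axis, bp). Coloured bars are genes, grey lines their 2 kb flanks, black triangles IDR summits with area growing with signal, and red ticks relaxed pooled summits outside the IDR list. Most triangles lie beyond the 3′ end or in the upstream flank, and *Rpn3*, *Rpn5* and *Rpn11* are the genes with one close to 0.

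Most of these summits lay at the promoters of neighbouring genes. The 12 members had 21 distinct IDR summits, of which 17 were within 500 bp of the TSS of some gene, but a member's TSS was the nearest for 3, those at *Rpn3*, *Rpn11* and *Rpn9*. That of *Rpn9* is 1408 bp upstream of its TSS, with signal 194. The strongest of the 21, with a signal of 1591 and rank 59, lies 3′ of *Rpn5* and 103 bp from the TSS of *Hpf1*. Its ranks in replicates 1, 3 and 4 were 69, 64 and 50 (mean rank 61.0 ± 9.85, SD, n = 3), so all libraries had it among their strongest peaks. *Rpn5* therefore lies between a peak shared with *Hat1* and a stronger one at *Hpf1*.

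The core genes with such summits had them near neighbours. Those 3′ of *Prosalpha4*, with signals of 392 and 501, lie in the 5′ UTR of *eas*, which encodes ethanolamine kinase. Those of *Prosalpha3* lie in the 5′ UTR and an intron of *CG10543* (signals 144 and 272), and that of *Prosalpha1* in the 5′ UTR of *phr* (signal 203), a photolyase gene. *Prosbeta6* is flanked by summits at *CG4098* (signal 247) and *CG4101* (signal 269).

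In the base, *Rpt6* had summits of signal 411 and 193 upstream of the shared start of *SLIRP1* and *anox*, *Rpn2* had them at *eIF2D* (signal 284) and *rdog* (signal 377), and *Rpn13* at *AGO1* (signals 143 and 164), the gene of an Argonaute protein. Besides its promoter peak, *Rpn3* had a summit of signal 146 at *CG10492*, and *Rpn9* had one of signal 195 at the RNA gene *RNaseMRP:RNA*. Of all 21 summits, 11 were matched within 100 bp in the top lists of all 3 libraries. Over the whole IDR list, 4297 of 7571 peaks were matched in all libraries, a similar share.

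The single paralogue under the wider rule was *Prosbeta2R2* on 3R. Its summit, of signal 648 and rank 620, lies in an intron of *cno*, which encodes a junction protein, 3422 bp downstream of the paralogue's TSS. Signals there were 219, 236 and 200 in replicates 1, 3 and 4, at ranks 475, 642 and 791 (mean rank 636 ± 158, SD, n = 3). The peak is strong in every library and lies in the neighbour. For the other 15 paralogues the nearest IDR summit was between 3652 bp (*Prosbeta5R1*) and 74364 bp (*Rpt4R*) from the TSS.

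Among members without any summit nearby, the strength of the nearest peak varied. The ATPase genes *Rpt2* and *Rpt5* on 3R had strong ones in reach, of signal 1289 at 2865 bp and of signal 1323 at 5351 bp. The core genes *Prosbeta4* and *Prosbeta5*, the second a catalytic subunit gene, were 11257 and 11582 bp from peaks of signal 971 and 960. The ATPase genes *Rpt3* and *Rpt1* were the farthest of the constitutive genes, at 29874 and 31965 bp from peaks of signal 163 and 150. Some members share their nearest peak, and these do not count as separate cases. *Prosalpha1* and its paralogue *Prosalpha1R*, with *CG18853* between them on 2R, share the one at *phr*, at 3318 and 6411 bp, and *Prosbeta4R1* and *Prosbeta4R2* share one of signal 135, at 67523 and 65175 bp.

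Close neighbours were common at the constitutive genes. Another gene's TSS lay within 500 bp for 24 of 48 members (50%), against 34.1% of protein-coding genes, and in all 24 cases that gene was divergent. The count was 9 of 14 in the core, 6 of 10 in the base, 6 of 8 in the lid and 3 of 16 among the paralogues. An IDR promoter summit was found at 2 of 24 members with such a neighbour (8.33%), against 26.0% of the protein-coding genes with one, and at 1 of 24 members without (4.17%), against 14.1%. Among protein-coding genes no longer than the longest member the shares were 21.6% with a neighbour and 7.93% without. The constitutive subunits alone stood at 2 of 21 with a neighbour (9.52%) and 1 of 11 without (9.09%). They were thus below both backgrounds where a neighbour was present, and without one they were above that of the short genes, by a count of 1 gene.

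The members' promoter sequences were searched on both strands from 250 bp before the TSS to 50 bp after it. TATCGATA, the DNA replication-related element (DRE) that the factor DREF binds in *Drosophila*, was frequent in the core and lid genes. It was present in 12 of 48 members (25%), against 8.94% of all protein-coding promoters. By class it was in 6 of 14 core genes, 1 of 10 base genes, 4 of 8 lid genes and 1 of 16 paralogues, and it was also frequent in genes of the cytoplasmic ribosome (30.1%). Among protein-coding genes with an IDR promoter summit the share was 9.02%, close to that of all promoters. These are sequence matches, which do not show a bound site.

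A pair of members that hold the element while lying far from any IDR summit is shown, with the DRE in capitals. They were chosen after their values were seen, for their distance from any IDR summit. *Prosalpha6*, an alpha ring gene, has its nearest summit 20298 bp away, and its sequence is chr2L:10221187-10221350 on the plus strand, with the element starting 16 bp before the TSS. *Rpn12*, a lid gene, has its nearest summit 26284 bp away, and its sequence is chr3L:16582778-16583027 on the plus strand, with the element starting 216 bp before the TSS.
Prosalpha6 promoter: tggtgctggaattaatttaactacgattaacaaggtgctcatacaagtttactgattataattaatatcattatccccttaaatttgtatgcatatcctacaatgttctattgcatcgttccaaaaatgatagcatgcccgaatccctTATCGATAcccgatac
Rpn12 promoter: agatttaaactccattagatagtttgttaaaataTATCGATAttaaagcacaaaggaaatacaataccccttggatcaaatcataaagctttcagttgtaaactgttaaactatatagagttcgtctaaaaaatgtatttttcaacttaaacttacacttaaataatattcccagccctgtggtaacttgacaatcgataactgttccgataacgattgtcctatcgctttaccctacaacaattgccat
The *Rpn3* window printed above also holds the element, in lower case, starting 197 bp before the TSS and overlapping no base of the repeat. A second copy starts 76 bp after the *Rpn3* TSS, within 50 bp of the summit, and such a match was found near 1.48% of all IDR summits at promoters. Of the 3 members with a promoter summit, *Rpn3* alone has it.

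**Figure D5:**
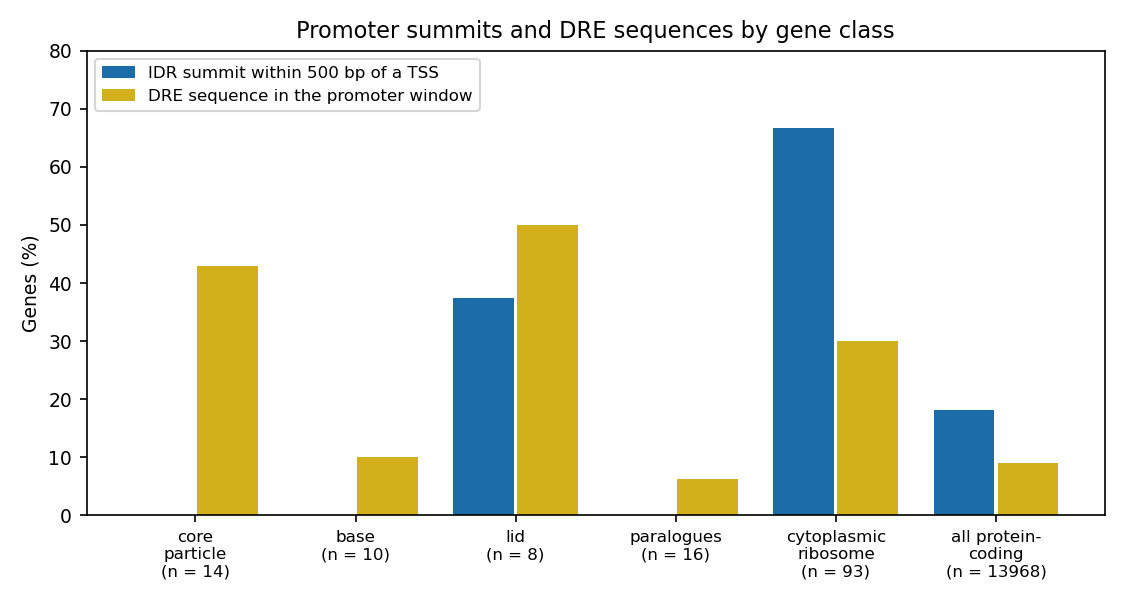
Share of genes (vertical axis, percent) with an IDR summit within 500 bp of a TSS and share with the DRE sequence in the promoter window, for the 4 classes of proteasome genes, the cytoplasmic ribosome and all protein-coding genes. The core has the element at 42.9% of its genes and a promoter summit at 0%, whereas the lid has both, at 50% and 37.5%.

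The E-box CANNTG was in 68.8% of member promoters, against 77.4% of all protein-coding promoters, and its form CATATG in 8.33%, against 7.80%. The form CACGTG was in 0 of 48 members, against 4.25%. TGACNNNGC, the core of the antioxidant response element bound by factors of the Cnc family, was in 12.5%, against 8.47%, and the TATA box TATAAA in 37.5%, against 45.3%. ATATTA and TCTTAA, words taken up from earlier results on all peaks, were in 50% and 22.9%, against 32.6% and 19.9%. CATATG and CACGTG are contained in CANNTG, and matches of the AT-rich words can overlap each other. The members' promoters had a GC content of 34.5 ± 6.60% (SD over 48 promoters), against 39.3 ± 7.83% (SD over 13967 promoters), and AT-rich words are likelier at lower GC. In the 101 bases around the promoter summits, CANNTG was in 1 of 3 members, against 35.8% of all 2767 IDR summits at promoters.

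The other genes of the pathway were taken from a list of 18 assembly, associated, shuttle, ubiquitin and regulator genes, of which 17 matched the annotation. Promoter summits were found at 4 of the 17 (23.5%), against 18.2% of all protein-coding genes, and 9 met the wider rule (52.9%), against 34.4%. With so few genes, the first of these shares is near its background. *Pomp*, the chaperone that matures the core particle, had its summit 251 bp from the TSS, with a signal of 352, at ranks 2716, 1738 and 2030 in replicates 1, 3 and 4. Its signal is thus close to the 354 of *Rpn3*. The polyubiquitin gene *Ubi-p63E* had one of signal 288, 137 bp from the TSS, and *Ubi-p5E* one of signal 142, 29 bp from the TSS. *cnc*, whose products include the Nrf2-type activator that is known to induce proteasome genes, had one of signal 216, 20 bp from a TSS. The other 5 that met the wider rule were *REG*, *Ubqn*, *Uba1*, *maf-S* and *Keap1*.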

How the data were processed

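ChIP-seq peak lists of 3 libraries, which form 1 group, were used on build dm6. Per the deposited file descriptions, each library and the pooled alignments had a relaxed list called with a control alignment, from which the IDR-thresholded list was made. The aligner and the peak caller were not given in the sources used here. The signal per peak is the authors' deposited value and served only to rank peaks within a list, and the summit came from the deposited offset. All 7571 IDR peaks are the strongest 7571 of the pooled list. The dm3 lists were not used, since coordinates were not converted between builds.

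Genes and TSSs came from Ensembl release 115 and sequences from the RefSeq Release 6 genome. Summits were matched between lists within 100 bp. Counts were made in Python 3.11.15 with pandas 2.3.3 and numpy 2.4.6, and the counting was tested on simulated summits. Values by library are given for members with an IDR promoter summit and for paralogues with one in the gene or its 2 kb flanks. They are also given for some relaxed promoter peaks of the other members. For the rest, the pooled signal is given, mostly with the libraries that matched. Rpn10 and Rpn13 were counted in the base. The members, lists and motifs were chosen with earlier results of these data known. Since genes are not replicates and there is 1 group, no test was made. Shares over genes no longer than the longest member, and by neighbouring TSS, were added after the data were seen. Alternatives covered the peak threshold, single libraries, left-out replicates, the distance limit, the TSSs, and the assignment of summits. An item at 1 locus is not reported here.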

Additional observations from a re-analysis of the deposited data

How the results depend on the processing

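The promoter count of 3 members stayed between 2 and 4 under every alternative run except the relaxed pooled list, which gave 10 members, with 4 in the core and 2 in the base. Over all protein-coding genes the share lay between 11.2% and 22.0% under the former settings and was 33.6% in the relaxed pooled list. Leaving out 1 replicate gave 2 to 3 promoter members, 9 to 11 members within the gene or 2 kb, 2 to 3 lid genes and 0 genes in each other class. The shares of all protein-coding genes fell as well, to 12.6% to 14.2% at promoters and 27.2% to 28.4% within the gene or 2 kb. The gene or 2 kb count of 12 became 1 within the gene alone (2.08%, against 15.0% of protein-coding genes). It became 3 when a member's TSS had to be the nearest of all (6.25%, against 20.5%). *Rpn11* is the member lost with a limit of 200 bp, in the stronger part of the IDR list, or when all 3 libraries had to match. Single-library summits departed from the pooled one by more than the SD over libraries at −197 bp for *Rpn11* in replicate 4, which is still close to it, and in replicate 1 at −39 bp for *Rpn3* and −273 bp for *Rpn5*, whose replicate 3 summit at −113 bp was within that SD. In windows around the 3 summits in place of promoter windows, CANNTG and CATATG were in 1 of 3 each (33.3%). Over all 2767 IDR summits at promoters the shares were 35.8% and 3.0%. TATCGATA and TATAAA were also in 1 of 3 each, against 1.48% and 15.8%. TGACNNNGC, ATATTA and TCTTAA stood at 0%, against 2.39%, 13.1% and 8.06%. The windows around the 3 summits are fewer and shorter than the promoter windows. No paired analysis was possible because the libraries form 1 group. The unknown depth and the lists' common length of 30000 limit what the absence of a weak peak shows.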

Other observations

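Near *Rpn12*, a peak was seen in every library and not in the pooled list. Summits at the start of *Smn*, upstream of the *Rpn12* TSS by 1558 bp in replicate 1, 1618 bp in replicate 3 and 1620 bp in replicate 4, had signals of 63.5, 68.7 and 74.8 at ranks 4558, 5370 and 4056, all within the top lists. The pooled relaxed list held no summit within 500 bp of it. Such cases were few, 23 of the 4221 summits found in all 3 top lists. The nearest IDR summit to *Rpn12* lies 26284 bp away on the other side.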
